A study of Mus musculus with 12 samples.

Results

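The 9 genes described here encode GPR174 and 8 other G-protein-coupled receptors of lymphocytes that sense lipids, protons, nucleosides or related small ligands, or that raise cyclic AMP. They are *Gpr174*, *P2ry10*, *Gpr171*, *Gpr132*, *Gpr18*, *Gpr65*, *Ptger4*, *Adora2a* and *P2ry14*. They were picked by gene symbol, with earlier results of these data known, so a count of called members describes a chosen set. They make up 9 of the 13574 genes listed in at least 1 of the 2 count tables. All 9 were listed in both tables, as were 12837 genes in all, and 8 of the 9 passed the filter on low counts in every fit. *P2ry14* did not pass.

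RNA sequencing was done on follicular B cells (CD21/35- CD23+), the main mature B cell of the spleen, sorted from adult male mice. WT mice were Gpr174+/Y. GPR174-deficient (KO) mice were Gpr174-/Y, and their single coding exon was replaced by an in-frame tdTomato reporter, in a line made in ES cells of a different inbred strain and backcrossed to C57BL/6J. The groups were WT 0 h and KO 0 h, taken directly after the sort, and WT 4 h and KO 4 h, taken after 4 h in complete RPMI medium with 10% FBS and no added stimulus. Each group had 3 libraries, from 3 mice per genotype. The KO allele is X-linked, so the mice were compared as hemizygous males, and it is not restricted to B cells.

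GPR174 is a receptor for the lysophospholipid lysophosphatidylserine (lysoPS) and couples to Gαs, which drives adenylyl cyclase. Cyclic AMP then frees the catalytic subunits of protein kinase A, and these phosphorylate the transcription factor CREB, which binds the cyclic AMP response element of its target promoters. Among the other receptors, P2RY10 also binds lysoPS, GPR132 responds to lysophospholipids and oxidized fatty acids, and GPR65 is a proton sensor coupled to Gαs. PTGER4, also called EP4, is a prostaglandin E receptor and ADORA2A an adenosine receptor, and both couple to Gαs. GPR171 is a receptor for a neuropeptide, GPR18 a receptor for lipid mediators and P2RY14 a receptor for UDP-sugars.

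The libraries held 6098941 to 11618787 counts. A single read was counted against totals of this size, so 3 reads, taken as the floor of a count of 0, stood for 0.268 to 0.484 CPM (the count normalized to library size, scaled by TMM). Of 10 B cell markers 9 were listed, and the missing one was *Ighd*. Their summed level at 0 h was 9683 to 10130 CPM in WT and 9197 to 9723 CPM in KO, and at 4 h 6235 to 6461 CPM in WT and 7661 to 7926 CPM in KO. All 10 T cell markers were listed, and their sum was 3.03 to 14.1 CPM in any library. Of 10 macrophage markers 10 were in the 0 h table and 4 in the 4 h table, and they summed to 57.6 to 70.2 CPM at 0 h and to 22.4 to 41.2 CPM at 4 h. Of 5 erythroid markers 3 were listed at each time, without *Hbb-b1* and *Hba-a1*. The 3 summed at 0 h to 73.08 to 103.9 CPM in WT and 62.75 to 224.3 CPM in KO. At 4 h they summed to 88.99 to 121.3 CPM in WT and 66.73 to 185 CPM in KO. Of 5 granulocyte markers 2 were in the 0 h table and 4 in the 4 h table. A marker missing at one time added 0 there, so macrophage and granulocyte sums do not cover the same genes at both times. Granulocyte markers summed at 0 h to 18.58 to 50.35 CPM in WT and 33.71 to 101 CPM in KO. At 4 h they summed to 20.49 to 48.89 CPM in WT and 17.91 to 94.07 CPM in KO. The part of these marker differences in the receptor values was not tested. In bulk libraries, fewer cells of a type and less RNA per cell cannot be told apart.

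Promoter sequence is shown first for the receptors whose levels differed most between the groups, because CREB acts at promoters. The windows cover 250 bases before and 50 bases after a RefSeq transcript start (GRCm38.p6, the build of the files). Of the 9 genes, 7 had at least 1 window, and these gave 11 windows. *Gpr171* and *Adora2a* had none, so neither was searched. The authors' paper cites a prediction of conserved cyclic AMP response elements in *Gpr171*, which these windows cannot address. Each window was searched on both strands for the full cyclic AMP response element (TGACGTCA, its own reverse complement) and for the shorter site TGACG, which reads CGTCA on the other strand and is contained in the full element. The full element was in 0 of the 11 windows and in 1.79% of 32851 promoter windows of the same length. The shorter site was in 2 of the 11 windows and in 20.8% of all promoter windows, so 2 of 11 is near that share. Several of the 11 windows belonged to *P2ry14*, and some of these overlapped. The *Gpr174* and *Gpr132* windows lay at RefSeq starts inside the gene spans given below, whose outer starts were not searched. It was found at the later of the 2 *P2ry10* starts and in *Gpr132*. A match only describes the letters. Capitals mark the match, and the windows of *Ptger4* and *Gpr174*, which have none, are given in lower case for comparison.
*P2ry10*, chrX:107089083-107089382, plus strand, match beginning at base -103 from the start: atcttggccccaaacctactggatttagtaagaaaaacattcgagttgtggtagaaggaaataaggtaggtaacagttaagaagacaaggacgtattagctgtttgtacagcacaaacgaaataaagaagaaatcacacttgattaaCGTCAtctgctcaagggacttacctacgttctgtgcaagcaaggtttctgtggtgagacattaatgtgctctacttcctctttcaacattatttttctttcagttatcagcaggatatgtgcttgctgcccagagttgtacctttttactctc
*Gpr132*, chr12:112860867-112861166, minus strand, match beginning at base -112 from the start: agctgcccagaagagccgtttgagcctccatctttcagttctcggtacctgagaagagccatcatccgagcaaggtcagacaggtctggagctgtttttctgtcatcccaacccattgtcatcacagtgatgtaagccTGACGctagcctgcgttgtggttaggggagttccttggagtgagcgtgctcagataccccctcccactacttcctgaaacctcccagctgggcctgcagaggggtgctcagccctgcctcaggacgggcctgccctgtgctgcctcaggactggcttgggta
*Ptger4*, chr15:5244138-5244437, minus strand: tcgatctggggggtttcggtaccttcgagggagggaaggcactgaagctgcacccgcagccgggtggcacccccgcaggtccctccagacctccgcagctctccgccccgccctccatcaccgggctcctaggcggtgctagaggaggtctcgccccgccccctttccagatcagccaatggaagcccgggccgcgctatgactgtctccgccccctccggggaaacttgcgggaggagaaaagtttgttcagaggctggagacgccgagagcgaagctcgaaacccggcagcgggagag
*Gpr174*, chrX:107284096-107284395, plus strand: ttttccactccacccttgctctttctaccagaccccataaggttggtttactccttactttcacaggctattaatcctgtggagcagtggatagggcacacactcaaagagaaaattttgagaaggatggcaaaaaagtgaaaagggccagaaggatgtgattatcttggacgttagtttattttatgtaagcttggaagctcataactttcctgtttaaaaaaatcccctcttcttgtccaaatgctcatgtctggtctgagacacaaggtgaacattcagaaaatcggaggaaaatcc

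Before culture, *Gpr174* itself was the 1 receptor gene of the 8 tested that was called different between WT and KO B cells. After 4 h, *P2ry10*, *Gpr171*, *Gpr132* and *Ptger4* were each more than 2-fold higher in WT than in KO cells. In WT cells these 4 genes rose during culture. In KO cells *P2ry10*, *Gpr171* and *Gpr132* had culture changes that did not pass the test, and *Ptger4* fell, a call near the threshold. *Gpr18*, *Gpr65* and *Adora2a* did not differ between genotypes in the test at either time. *P2ry14* was close to the detection floor. The plot of levels by library shows all 9 genes in all 12 libraries.

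**Figure D1:**
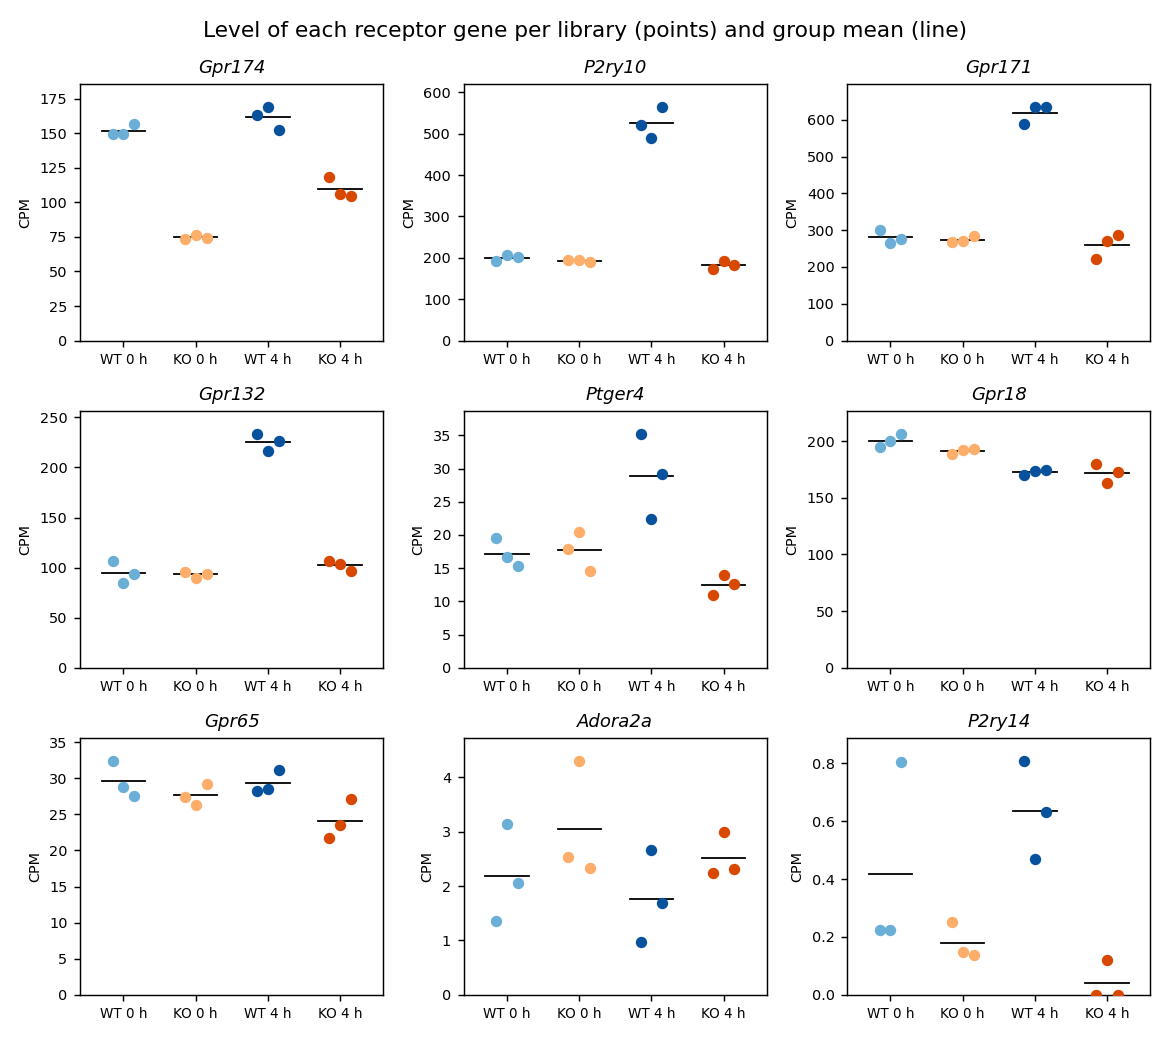
Level of each of the 9 receptor genes in normalized counts (CPM, vertical axis from 0, a scale of its own in each panel) in the 4 groups, with 1 point per library and a line at the group mean. In *P2ry10*, *Gpr171*, *Gpr132* and *Ptger4* the 3 WT 4 h libraries lie above the other 9 libraries, and in *Gpr174* the KO libraries lie below the WT libraries at both times.

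*Gpr174*, the targeted gene, was read first. The gene runs on the plus strand of chromosome X from 107255878 to 107296769 (GRCm38/mm10). Its merged exons span 5402 bp, of which 1005 bp (18.6%) are coding, in 1 exon from 107292584 to 107293588. The WT 0 h libraries, in the order of replicates 1 to 3 as throughout, gave 149.6, 149.5 and 156.9 CPM and the KO 0 h libraries 73.4, 76.7 and 74.0 CPM. After 4 h the WT libraries gave 163.5, 169.1 and 152.6 CPM and the KO libraries 118.3, 105.8 and 104.8 CPM. Every KO library was below every WT library of its time, and the KO 4 h libraries lay between the KO 0 h and the WT libraries. Between genotypes the log2 fold change was 1.02 ± 0.06 (SE) at 0 h, with an edgeR adjusted p of 2.3e-07, and *Gpr174* ranked 1 by p among all genes tested at 0 h. At 4 h it was 0.56 ± 0.07 (edgeR adjusted p 4.21e-05). The tables give 1 count per gene, so reads from the coding exon were not separated from reads of untranslated exons. Which untranslated sequence the KO allele keeps was not stated in the sources used here.

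Culture acted on the *Gpr174* count differently by genotype. In KO cells the level rose between 0 h and 4 h by a log2 fold change of 0.55 ± 0.07 (edgeR adjusted p 2.39e-06). In WT cells the change was 0.09 ± 0.06 (edgeR adjusted p 0.31), with 2 standard errors reaching from -0.04 to 0.21. The culture change of WT minus that of KO was -0.47 ± 0.09 on the log2 scale (edgeR adjusted p 0.00208). With library totals alone as the scaling, the WT change became 0.20 with an edgeR adjusted p of 0.0207, while the median of all genes in that contrast moved to 0.11. In every alternative the KO rise kept its sign and its call.

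At 0 h the genotype comparison asked whether the receptors differed before any culture. Of the 8 receptor genes tested 1 was called (adjusted p under 0.05), against 0.987% of the 11345 genes tested, and it was *Gpr174*. The KO allele alters the *Gpr174* count by design, and the other 7 were not called. That background split into 57 genes with a higher level in WT (0.502%) and 55 with a higher level in KO (0.485%), or 37 and 68 with library totals alone. The median log2 fold change was 0.03 over the 8 receptor genes and 0.00026 over all genes tested. The 7 receptor genes not called had log2 fold changes of WT over KO from -0.48 in *Adora2a* to 0.09 in *Gpr65*. The genotypes' libraries were apart in *Gpr174* and in *Gpr18*, 2 of 8 genes, against 18.3% of all genes tested. The *Gpr18* difference was 0.06 ± 0.05 (edgeR adjusted p 0.703).

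At 4 h the same comparison asked what the absence of GPR174 changed once cells had been cultured. Of the 8 receptor genes tested 5 were called, all higher in WT, against 10.9% of the 11123 genes tested called in either direction, 5.22% with WT above KO and 5.67% with KO above WT. The 5 were *P2ry10*, *Gpr171*, *Gpr132*, *Ptger4* and *Gpr174*, whose count the KO allele alters by design. The counts and medians over the 8 genes include *Gpr174*. The median log2 fold change was 0.85 over the 8 receptor genes and 0.0048 over all genes tested. Libraries of the genotypes were apart in 6 of the 8 genes, against 27.9% of all genes tested. Beside the 5 called genes this was *Gpr65*, which was not called. Called changes of more than 2-fold were found in 1.34% of all genes tested, and *P2ry10*, *Gpr171*, *Gpr132* and *Ptger4* were among them.

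**Figure D2:**
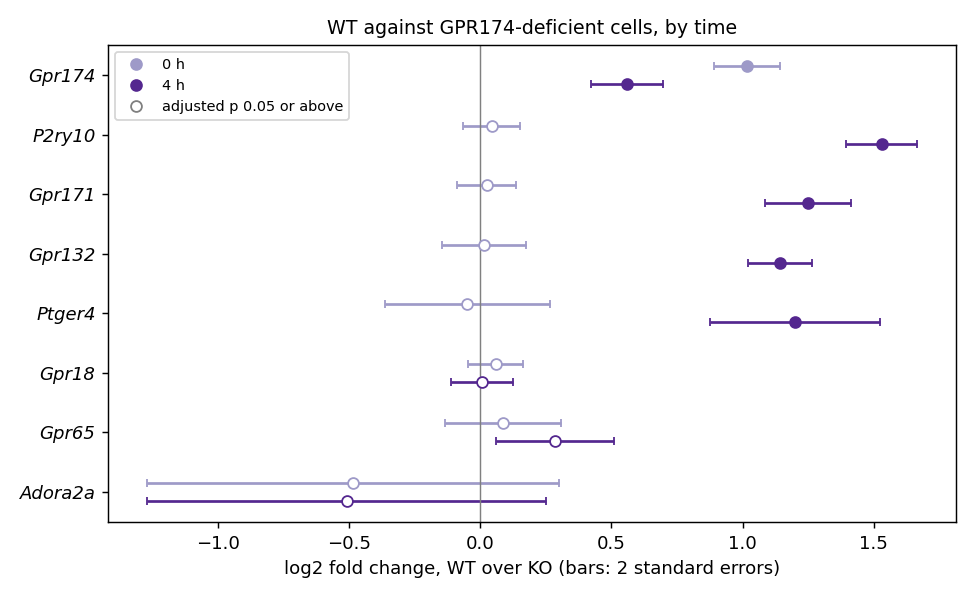
Log2 fold change of WT over KO for the 8 receptor genes tested, at 0 h and at 4 h (horizontal axis, bars of 2 standard errors, filled symbols at an adjusted p under 0.05). At 0 h 1 filled symbol is seen, for *Gpr174* at 1.02, and at 4 h there are 5, from 0.56 in *Gpr174* to 1.53 in *P2ry10*.

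*P2ry10*, the other lysoPS receptor gene of the set, lies on the same chromosome as *Gpr174*. It spans 107088492 to 107104974 on the plus strand of chromosome X, and its coding sequence is in 1 exon. WT libraries at 0 h gave 191.8, 207.4 and 201.2 CPM and KO libraries 194.1, 195.7 and 189.2 CPM. At 4 h WT libraries read 521, 490 and 564.7 CPM, against 172.2, 191.1 and 182.4 CPM in the KO libraries. Only the WT 4 h libraries stood apart, and the lowest of them was more than 2-fold above the highest of the other 9. WT over KO had a log2 fold change of 0.04 ± 0.05 at 0 h (edgeR adjusted p 0.795) and 1.53 ± 0.07 at 4 h (edgeR adjusted p 7.4e-10), a 2.89-fold difference. Culture raised the gene by 1.39 ± 0.06 in WT (edgeR adjusted p 1.17e-13) and changed it by -0.09 ± 0.06 in KO (edgeR adjusted p 0.354). Among the 8 receptor genes the difference between these culture changes was highest here, at 1.48 ± 0.09 (edgeR adjusted p 2.76e-10).

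Because *P2ry10* lies next to the targeted locus, other genes there were read as well. Within 1 Mb of the *Gpr174* start 37 genes are annotated, 6 were listed in a table, and 4 were tested at each time. At 0 h 0 of the 4 were called by edgeR, against 0.987% of all genes tested, so 0 of 4 is near that share. Of these 4, 0 had an unadjusted p under 0.05 and 0 were called by DESeq2. At 4 h *P2ry10* was the 1 called of 4, against 10.9% of all genes tested. The start of *P2ry10* is 167.4 kb before that of *Gpr174*. Between them, 107.0 kb before *Gpr174*, starts *A630033H20Rik*, also named *P2ry10b*, a close relative of *P2ry10*. Its mean was 41.1 ± 6.84 CPM in WT and 45.5 ± 0.977 CPM in KO at 0 h, and 34.7 ± 3.55 and 36.7 ± 2.53 CPM at 4 h (SD, n = 3). Its log2 fold change of WT over KO was -0.16 ± 0.11 at 0 h and -0.08 ± 0.10 at 4 h (edgeR adjusted p 0.598 and 0.702). In KO cells it fell in culture, at -0.31 ± 0.11 (edgeR adjusted p 0.0443), a call lost in 9 of 19 alternatives. On the other side, *Itm2a* (147.5 kb after) had -0.40 ± 0.38 at 0 h and 0.12 ± 0.35 at 4 h, and *2610002M06Rik* (560.5 kb after) had 0.07 ± 0.10 and 0.02 ± 0.09. How reads common to *P2ry10* and *P2ry10b* were counted was not stated.

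**Figure D3:**
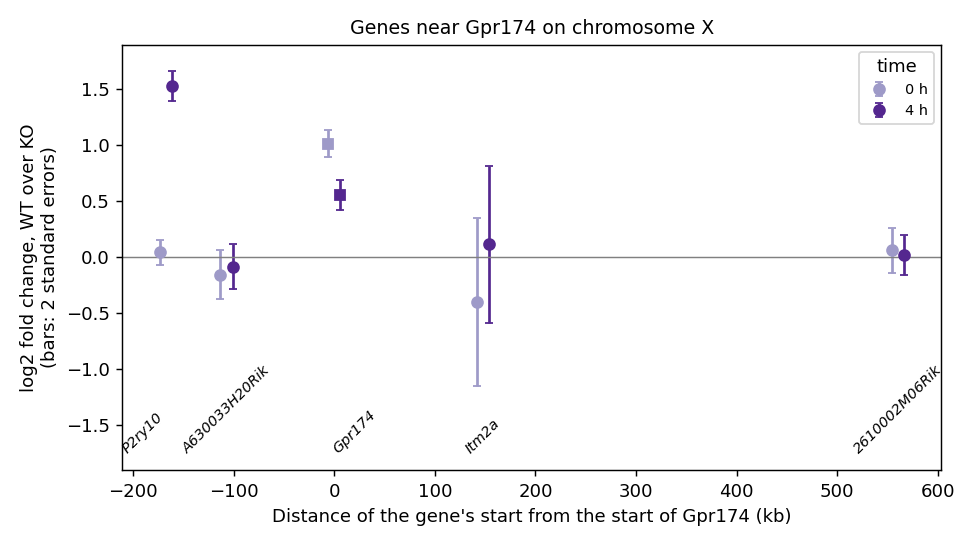
Log2 fold change of WT over KO (vertical axis, bars of 2 standard errors) at 0 h and 4 h for the tested genes within 1 Mb of *Gpr174*, against the distance of their starts from that of *Gpr174* in kb. *Gpr174* is drawn as squares at 0 kb. *P2ry10* stands at 1.53 at 4 h, while *A630033H20Rik* between it and *Gpr174* stands at -0.08.

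*Gpr132* encodes a receptor that responds to lysophospholipids and oxidized fatty acids, and lies on the minus strand of chromosome 12 from 112850873 to 112868228. At 0 h WT libraries read 106.4, 84.6 and 93.6 CPM, against 96.1, 90.1 and 94.0 CPM in the KO libraries. Cultured WT cells gave 233.3, 216.4 and 226.8 CPM, and cultured KO cells 106.2, 103.3 and 97.0 CPM. The 0 h groups overlapped, the KO 4 h libraries lay just above those of KO 0 h, and the WT 4 h libraries were far above all others. Between genotypes the log2 fold change was 0.01 ± 0.08 at 0 h (edgeR adjusted p 0.966) and 1.14 ± 0.06 at 4 h (edgeR adjusted p 6.41e-09). Culture gave 1.25 ± 0.07 in WT (edgeR adjusted p 1.07e-11) and 0.13 ± 0.08 in KO (edgeR adjusted p 0.235). The culture change differed between genotypes by 1.12 ± 0.10 (edgeR adjusted p 2.39e-07).

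*Gpr171*, the neuropeptide receptor gene, lies on the minus strand of chromosome 3 from 59096448 to 59101821. Uncultured WT cells gave 300.6, 265.2 and 275.9 CPM, and uncultured KO cells 267.8, 270.2 and 284.4 CPM. After 4 h the WT libraries gave 589.5, 634.8 and 633.8 CPM and the KO libraries 221.8, 271.8 and 287.7 CPM. Again only the WT 4 h libraries were raised, and the other 3 groups overlapped one another. WT over KO had a log2 fold change of 0.03 ± 0.06 at 0 h (edgeR adjusted p 0.901) and 1.25 ± 0.08 at 4 h (edgeR adjusted p 5.13e-08). Culture gave 1.14 ± 0.07 in WT (edgeR adjusted p 7.91e-11) and -0.07 ± 0.08 in KO (edgeR adjusted p 0.532). The difference between the culture changes was 1.22 ± 0.11 (edgeR adjusted p 8.91e-08). *Gpr171* and *P2ry14* both lie inside *Med12l*, which is on the opposite strand and shares 0 exonic bases with either. *Med12l* had a mean log2 CPM of 2.97 at 4 h and a log2 fold change of WT over KO of 0.53 ± 0.30 (edgeR adjusted p 0.319).

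*Ptger4*, the prostaglandin E receptor of the set that couples to Gαs, lies on the minus strand of chromosome 15 from 5206661 to 5244187. It was expressed at a lower level than the preceding genes. WT libraries at 0 h gave 19.6, 16.7 and 15.3 CPM and KO libraries 18.0, 20.4 and 14.6 CPM. At 4 h WT libraries read 35.2, 22.4 and 29.1 CPM, against 10.93, 13.98 and 12.64 CPM in the KO libraries. The 0 h groups overlapped, whereas at 4 h the WT libraries were all above and the KO libraries all below every 0 h library. These levels rest on 83 to 276 reads per library, and the WT 4 h libraries were the most widely spread. Between genotypes the log2 fold change was -0.05 ± 0.16 at 0 h (edgeR adjusted p 0.935) and 1.20 ± 0.16 at 4 h (edgeR adjusted p 0.000113), a 2.3-fold difference. Leaving out each 4 h library in turn gave 1.04 to 1.35 at 4 h, always called.

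*Ptger4* was the 1 receptor gene whose culture changes were called in opposite directions. It rose by 0.75 ± 0.16 in WT (edgeR adjusted p 0.000906) and fell in KO, with a log2 fold change of -0.49 ± 0.18 (edgeR adjusted p 0.0473). The difference between these changes was 1.24 ± 0.24 (edgeR adjusted p 0.00159). The WT rise was called in all 19 alternatives. The fall in KO kept its sign in all 19 but lost its call in 9 of them, 7 of which left out a single library, and its edgeR adjusted p reached 0.192 without KO 0 h replicate 2. It was therefore near the threshold, while the difference between genotypes was not. *Ptger4* overlaps *Ttc33* and the pseudogene *Gm15937* on the opposite strand without sharing exonic bases, and *Ttc33* had a log2 fold change of WT over KO of -0.07 ± 0.12 at 4 h (edgeR adjusted p 0.776).

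*Gpr18*, which encodes a receptor for lipid mediators, is on the minus strand of chromosome 14 from 121911253 to 121915781. At 0 h WT libraries read 195.3, 200.2 and 206.3 CPM, against 189.1, 192.3 and 193.3 CPM in the KO libraries. Cultured WT cells gave 170.6, 173.8 and 174.5 CPM, and cultured KO cells 180.2, 162.9 and 172.9 CPM. All 4 h libraries were below all 0 h libraries, and the genotypes overlapped at 4 h. Culture lowered it by small amounts, with log2 fold changes of -0.21 ± 0.05 in WT (edgeR adjusted p 0.0041) and -0.16 ± 0.05 in KO (edgeR adjusted p 0.0436). The fall in WT lost its call with library totals alone, at -0.11 (edgeR adjusted p 0.156). The fall in KO lost its call in 9 of 19 alternatives, 6 of which left out a single library, and its edgeR adjusted p was 0.208 without KO 4 h replicate 2. With the replicate number as a block it was -0.16 (edgeR adjusted p 0.054). The difference between the culture changes was -0.06 ± 0.08 (edgeR adjusted p 0.776), with 2 standard errors reaching from -0.21 to 0.10. The genotype difference at 4 h was 0.01 ± 0.06 (edgeR adjusted p 0.953), so differences beyond -0.11 or 0.13 lay outside 2 standard errors. *Gpr18* lies inside *Ubac2*, on the opposite strand, with 0 shared exonic bases.

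*Gpr65* encodes a proton-sensing receptor that couples to Gαs, and lies on the plus strand of chromosome 12 from 98268635 to 98276644. Uncultured WT cells gave 32.3, 28.8 and 27.5 CPM, and uncultured KO cells 27.4, 26.2 and 29.2 CPM. After 4 h the WT libraries gave 28.2, 28.5 and 31.1 CPM and the KO libraries 21.7, 23.6 and 27.1 CPM. At 4 h the WT libraries were all above the KO libraries, by a small margin. WT over KO had a log2 fold change of 0.29 ± 0.11 at 4 h (edgeR adjusted p 0.133) and 0.09 ± 0.11 at 0 h (edgeR adjusted p 0.802). Neither culture change was called, at -0.01 ± 0.11 in WT and -0.20 ± 0.11 in KO (edgeR adjusted p 0.972 and 0.224). *Gpr65* shares 511 exonic bases with the antisense gene *Gm47566*, and the strand setting of the counting was not stated, so reads of the pair cannot be told apart.

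*Adora2a*, the Gαs-coupled adenosine receptor gene of the set, lies on the plus strand of chromosome 10 from 75316877 to 75334784 and was barely expressed. The WT libraries held 12, 28 and 23 reads at 0 h and 6, 17 and 16 at 4 h, and the KO libraries 20, 29 and 17 reads at 0 h and 17, 25 and 17 at 4 h. On the CPM scale the libraries ran from 0.968 to 4.3, and all 4 groups overlapped. Between genotypes the log2 fold change was -0.48 ± 0.39 at 0 h and -0.51 ± 0.38 at 4 h (edgeR adjusted p 0.668 and 0.467). At 4 h 2 standard errors reached from -1.27 to 0.25, an interval that holds a 2-fold excess in KO.

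*P2ry14*, the UDP-sugar receptor gene, lies on the minus strand of chromosome 3 from 59113855 to 59153618. The WT libraries held 2, 2 and 9 reads at 0 h and 5, 3 and 6 at 4 h, and the KO libraries 2, 1 and 1 reads at 0 h and 0, 1 and 0 at 4 h. The WT 4 h libraries were above the KO 4 h libraries, and those of 0 h overlapped. With a floor of 3 reads per library, most of these counts were at or below what a count of 0 allows, and no fold or test is given.

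The culture comparisons asked how the receptors moved between 0 h and 4 h in each genotype. In WT cells 5 of the 8 receptor genes tested were called, 4 raised and 1 lowered, against 33.1% of the 11572 genes tested called, 15.1% raised and 18% lowered. The 4 raised genes were *P2ry10*, *Gpr132*, *Gpr171* and *Ptger4*, and the lowered gene was *Gpr18*. In KO cells 3 of the 8 were called, *Gpr174* raised and *Gpr18* and *Ptger4* lowered, against 23.3% of the same genes called, 10.3% raised and 13% lowered. That count of 3 went down to 1 without the filter on low counts and in some fits that left out a library, where *Gpr174* remained. The numbers of genes raised and lowered were 1750 and 2080 in WT and 1193 and 1504 in KO, and they became 3001 and 1500 in WT and 2168 and 1101 in KO with library totals alone. The median log2 fold change of the 8 receptor genes was 0.42 in WT and -0.12 in KO, and that of all genes tested was 0.0048 and 0.0016.

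The difference between the culture changes of WT and KO was called in 5 of the 8 receptor genes, against 6.39% of the 11572 genes tested. It was above 0 in *P2ry10*, *Ptger4*, *Gpr171* and *Gpr132*, against 2.45% of all genes called above 0. It was below 0 in *Gpr174*, the targeted gene, against 3.94% of all genes. The 4 genes above 0 were also higher in WT than in KO at 4 h and raised by culture in WT. That combination was met by 1.77% of the 11118 genes tested in all 3 fits. The 3 comparisons share the WT 4 h libraries and are not separate evidence of one another. None of these 5 calls on the difference was lost in any of the 18 alternatives.

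**Figure D4:**
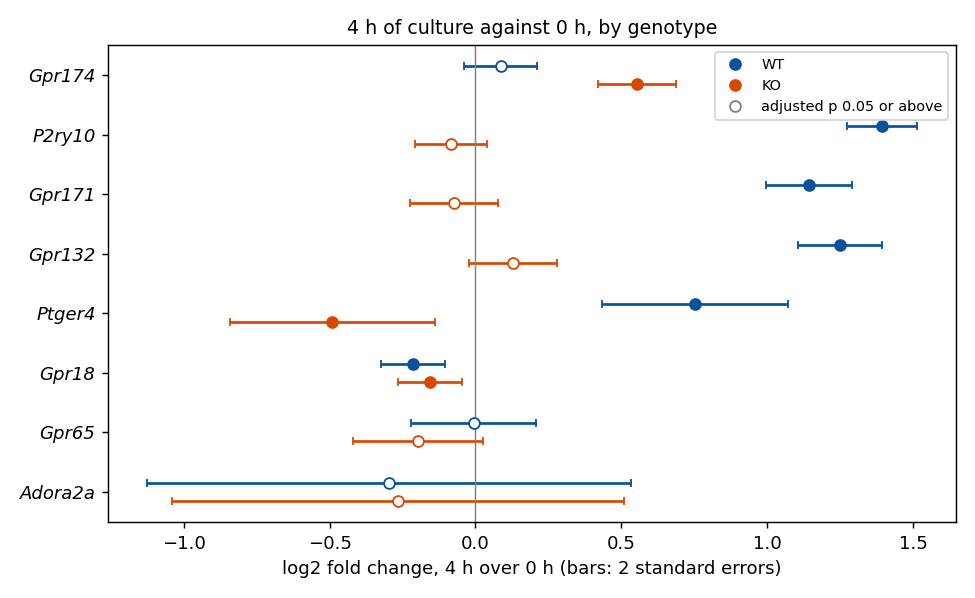
Log2 fold change of 4 h over 0 h for the 8 receptor genes tested, in WT and in KO cells (horizontal axis, bars of 2 standard errors, filled symbols at an adjusted p under 0.05). *P2ry10*, *Gpr171* and *Gpr132* rise by 1.14 to 1.39 in WT and lie between -0.09 and 0.13 in KO, *Ptger4* is at 0.75 and -0.49, and *Gpr18* is slightly below 0 in both.

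To compare levels between genes, CPM was divided by the length of merged exons in kb, and the order at the top depended on that choice of length. In WT 0 h cells *Gpr18* came first at 133.9 ± 3.68 CPM per kb, and its libraries overlapped those of *Gpr171* at 126.1 ± 8.16 (SD, n = 3). *P2ry10* followed at 68.3 ± 2.68, *Gpr132* at 38.3 ± 4.42 and *Gpr174* at 28.1 ± 0.786 CPM per kb. *Gpr65* was at 14.3 ± 1.21, *Ptger4* at 5.17 ± 0.663, *Adora2a* at 0.84 ± 0.347 and *P2ry14* at 0.135 ± 0.108 CPM per kb. From *Gpr171* downwards no neighbours in this order by merged exons overlapped. By coding length *Gpr171* led instead in WT 0 h, at 293.2 ± 18.97 CPM per kb, and *P2ry10* (203.4 ± 7.98) and *Gpr18* (202 ± 5.55 CPM per kb) followed and overlapped. By merged exons KO 0 h cells had the same order, with an overlap also between *Gpr174* (13.8 ± 0.327) and *Gpr65* (13.3 ± 0.717 CPM per kb). For *Gpr174* all KO values per length use the length of the WT gene, whose coding exon KO cells lack.

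After 4 h the order by merged exons changed in WT cells. *Gpr171* then came first at 278.4 ± 11.6 CPM per kb, followed by *P2ry10* at 179.1 ± 12.8 and *Gpr18* at 115.5 ± 1.39, with no overlap between neighbours. In KO 4 h cells *Gpr171* (117 ± 15.5) and *Gpr18* (114.8 ± 5.8 CPM per kb) overlapped at the top, above *P2ry10* at 62.0 ± 3.23 CPM per kb. *Gpr174* ranked 5 in all 4 groups by merged exons. By coding length *Gpr171* ranked 1 in all 4 groups, at 0 h as after culture. By coding length *Gpr174* ranked 4 in WT 0 h and in KO 4 h, since most of its annotated exon sequence is untranslated. Its ranks in KO rest on the length of the WT gene and do not measure the KO transcript per length.

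**Figure D5:**
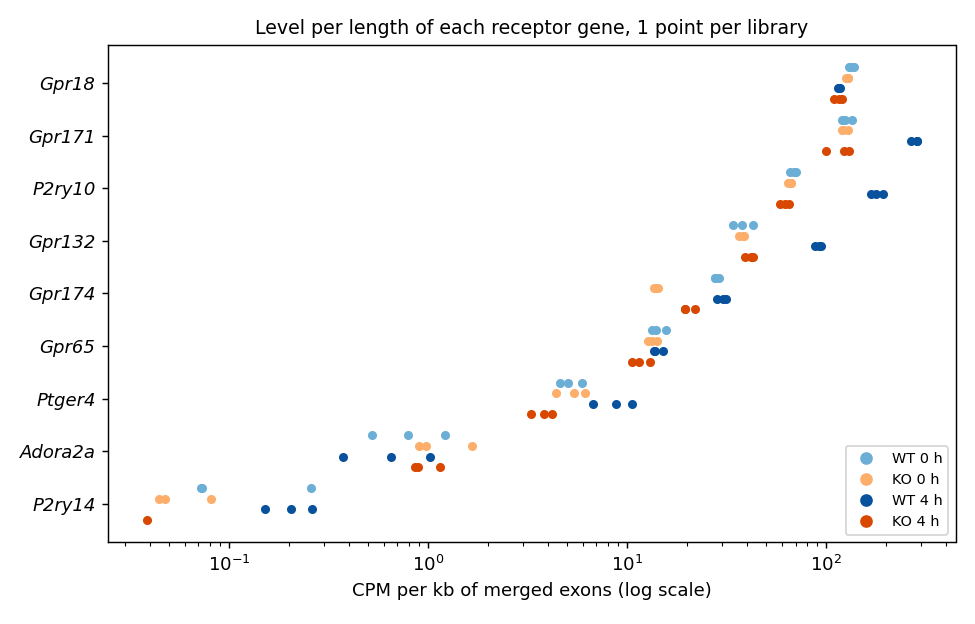
Level per length of the 9 receptor genes in CPM per kb of merged exons (horizontal log axis), with 1 point per library and a colour per group, ordered by the WT 0 h mean. *Gpr18* and *Gpr171* lead at 0 h with 133.9 and 126.1 CPM per kb in WT, and the WT 4 h points of *Gpr171*, *P2ry10* and *Gpr132* stand to the right of the other groups. The 2 KO 4 h libraries with 0 *P2ry14* reads are not drawn. The KO points of *Gpr174* use the length of the WT gene.

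Likeness of pattern was measured as the root mean square difference of log2 CPM over the 12 libraries, each gene centred on its own mean, among 11571 other genes. The lowest value marks the gene most alike. For *P2ry10* the 3 most alike genes were *Cyth1* (0.117), *Syngr2* (0.137) and *Tnfrsf1b* (0.146), and *Gpr171* was 4 and *Gpr132* 6 in the order. For *Gpr171* they were *1700017B05Rik* (0.139), *Sipa1l1* (0.142) and *Tnfrsf1b* (0.146), and for *Gpr132* *Trib1* (0.0946), *Sipa1l1* (0.106) and *Lamc1* (0.116). *P2ry10*, *Gpr171* and *Gpr132* were thus within rank 15 of one another, out of 11571. *Ptger4* was further off. Its most alike genes were *Rrad* (0.209), *Ptprj* (0.21) and *Prim2* (0.212), and among the receptor genes *Gpr171* came nearest, at rank 40.

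The remaining receptor genes had other company. *Gpr174* was most alike to *Frat2* (0.174), *Tex2* (0.204) and *Macrod1* (0.228), which were also lowest in KO 0 h. *Gpr18* was most alike to *Sp3* (0.0295), *Zfp639* (0.0352) and *Nin* (0.0392), whose group means all lay within 0.12 of their own mean. *Gpr65* was most alike to *Mdh2* (0.0764), *Pex10* (0.0896) and *Hsp90b1* (0.0911). For *Adora2a*, whose counts were low, they were *Paqr3* (0.23), *Tmcc2* (0.245) and *Gm15421* (0.248).

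The other receptors and the pathway around these genes were read from fixed lists. Of the other lysoPS receptors, *Gpr34* at 0 h held 15 to 26 reads in WT libraries and 6 to 9 in KO libraries, a log2 fold change of 1.02 ± 0.45 that was not called (edgeR adjusted p 0.356), and it did not pass the filter at 4 h. Of 20 other Gαs-coupled receptor genes 11 were in the 0 h table and 9 in the 4 h table, and *Adrb1*, *Ptgdr* and *Drd1* were among those in neither. At 0 h 0 of 6 tested were called by edgeR, against 0.987% of all genes tested, so 0 of 6 is near that share. Of the 6, 0 were called by DESeq2 and 1 had an unadjusted p under 0.05.

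*Hrh2*, a histamine receptor gene, fell during culture in WT, at -1.18 ± 0.27 (edgeR adjusted p 0.00189). *Ptger2*, the other prostaglandin E receptor that couples to Gαs, held 8 to 10 reads in KO 0 h and 0 to 2 in KO 4 h, and was called lower in that contrast (edgeR adjusted p 0.00294). *Ptger1*, a relative that does not couple to Gαs, had 4 h means of 76.3 ± 5.82 CPM (WT) and 62.7 ± 4.13 CPM (KO; SD, n = 3), with a difference of 0.29 ± 0.08 on the log2 scale (edgeR adjusted p 0.0308). That call was lost in 8 of 13 alternatives. Among 13 relatives by family or gene cluster, 3 were tested at 4 h and *Ptger1* was the 1 called, against 10.9% of all genes tested, and the count ran from 0 to 2 over the alternatives. In KO cells *Ptger1* fell in culture, at -0.33 ± 0.09 (edgeR adjusted p 0.00862).

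Downstream of Gαs, 21 of 24 listed genes from the G protein to CREB were tested at 4 h. Of these 9 were called, 7 with WT above KO and 2 with KO above WT, against 10.9% of all genes tested. *Crem*, a CREB family factor that is itself a target of cyclic AMP, had 4 h means of 137 ± 23.4 CPM in WT cells and 16.7 ± 1.54 CPM in KO cells (SD, n = 3), a log2 fold change of 3.04 ± 0.12 (edgeR adjusted p 3.37e-10). The phosphodiesterase genes *Pde4d* (1.93), *Pde3b* (1.71), *Pde8a* (1.05) and *Pde4b* (0.51), whose enzymes degrade cyclic AMP, were also higher in WT. *Pde7a*, another phosphodiesterase gene of the list, was called lower in WT (-0.26, edgeR adjusted p 0.0317), a call lost in 4 of 13 alternatives. It also fell during culture in WT (-0.43, edgeR adjusted p 2.52e-05). In culture 15 of the 21 were called in WT, 7 raised and 8 lowered, and 6 in KO, 5 raised and 1 lowered, against 33.1% and 23.3% of all genes called. The 5 largest in WT were *Pde3b* (3.20), *Crem* (3.05), *Pde4d* (2.36), *Pde8a* (1.70) and *Pde4b* (1.02), all raised. In KO they were *Pde3b* (1.78), *Pde8a* (0.91), *Pde4b* (0.61), *Crtc1* (0.52), a CREB coactivator gene, and *Prkar1a* (0.38), which encodes a regulatory subunit of protein kinase A. The difference between the culture changes was called in 9 of the 21, against 6.39% of all genes tested, and was largest in *Crem* (3.15), *Pde4d* (2.09), *Pde3b* (1.41), *Atf1* (-0.91) and *Adcy7* (-0.42). *Adcy7*, an adenylyl cyclase gene, was lower in WT at 4 h, at -0.33 ± 0.06 (edgeR adjusted p 0.00327). At 0 h 1 of 21 was called, against 0.987% of all genes tested. It was *Atf1* (0.54, edgeR adjusted p 0.0286), and that call was lost in DESeq2 and in 3 fits that left out a library. *Gnas*, the gene of Gαs, was not called between genotypes.

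Of the other Gα subunits, arrestins and receptor kinases, 0 of 14 were called by edgeR between genotypes at 4 h, against 10.9% of all genes tested, with 0 by DESeq2 and 3 at an unadjusted p under 0.05. Over the alternatives that count ran from 0 to 2. In culture 6 of the 14 fell in WT and 6 in KO, against 18% and 13% of all genes lowered, and *Grk6*, a receptor kinase gene, was at -0.77 ± 0.06 in WT and -0.60 ± 0.06 in KO. The others of the 5 largest falls were *Adrbk2* (-1.06), also a receptor kinase gene, *Arrb1* (-0.55), *Arrb2* (-0.37) and *Gnai2* (-0.24) in WT, and *Adrbk2* (-1.35), *Gna15* (-0.72), *Gnai2* (-0.36) and *Gna13* (-0.28) in KO. *Arrb1* and *Arrb2* encode the beta-arrestins, and *Gnai2*, *Gna15* and *Gna13* encode Gα subunits. Of the lysoPS and phosphatidylserine metabolism genes, 2 of 9 were called higher in WT at 4 h, against 5.22% of all genes tested. They were *Lpcat4* (0.56) and *Abhd12* (0.34), the latter a lysoPS lipase gene, and their edgeR adjusted p-values were 0.0257 and 0.0166. The call on *Lpcat4* was lost in 8 of 13 alternatives and that on *Abhd12* in 3. In culture 3 of the 9 were called in WT, all raised, against 33.1% of all genes called and 15.1% raised. The count of 3 of 9 is near the share called. They were *Ptdss2* (0.50), *Abhd12* (0.37) and *Ptdss1* (0.25). In KO 1 of the 9 was called, *Lpcat4*, lowered (-0.51), against 23.3% of all genes called and 13% lowered. *Ptdss1* and *Ptdss2* encode phosphatidylserine synthases. Of these 4 calls, all but that on *Abhd12* were lost in 8 to 12 of 19 alternatives.

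Other lipid receptors of lymphocytes were mostly lowered in culture. In WT 8 of 10 tested were called, 1 raised and 7 lowered, against 33.1% of all genes called and 18% lowered. In KO 6 were called, 1 raised and 5 lowered, against 23.3% called and 13% lowered. Over the alternatives the counts called ran from 6 to 8 in WT and from 4 to 6 in KO. The 5 largest changes in WT were the falls of *S1pr3* (-1.78), *Lpar5* (-1.33), *S1pr2* (-1.11), *Lpar2* (-1.07) and *Cnr2* (-0.75). The first 3 rest on few reads, in WT 4 h 14 to 34 in *S1pr3*, 3 to 17 in *Lpar5* and 7 to 40 in *S1pr2*. The WT calls on *Lpar5* and *S1pr2* were each lost in 3 of 19 alternatives. In KO *S1pr3* (-1.98), *Lpar5* (-1.41), *S1pr2* (-1.26) and *Cnr2* (-0.46) fell likewise, and the call on *Lpar5* was lost in 4 of 19 alternatives. The raised gene in both was *S1pr1*, the sphingosine 1-phosphate receptor for exit from lymphoid organs, at 0.38 ± 0.07 in WT and 0.58 ± 0.07 in KO. Between genotypes 1 of 9 was called at 0 h, against 0.987% of all genes tested. It was *S1pr2*, a sphingosine 1-phosphate receptor gene, with 5.85 ± 1.47 CPM in WT cells and 14.2 ± 1.72 CPM in KO cells (SD, n = 3), a difference of -1.27 ± 0.21 on the log2 scale (edgeR adjusted p 0.00685). Its edgeR adjusted p was 0.0591 without KO 0 h replicate 1. At 4 h 2 of 9 were called, against 10.9% of all genes tested, both lower in WT, *Lpar6* at -0.42 ± 0.09 (edgeR adjusted p 0.0085) and *Cnr2* at -0.26 ± 0.06 (edgeR adjusted p 0.0125). *Cnr2* encodes the cannabinoid receptor of lymphocytes, and its edgeR adjusted p was 0.0562 without WT 4 h replicate 3 and 0.0859 without KO 4 h replicate 1. The difference between the culture changes was called in 2 of 10 tested, against 6.39% of all genes tested. These were *S1pr4* (-0.40) and *Cnr2* (-0.30), and the calls were lost in 5 and 14 of 18 alternatives.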

How the data were processed

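Total RNA of sorted follicular B cells was amplified with a whole-transcriptome kit, and libraries were sequenced as single-end reads by the authors. The authors aligned reads to mm10 with STAR and counted them per gene with HTSeq, and the submitters' processing notes also name DESeq2. Tool versions, gene annotation and strand setting were not given in the sources used here. The authors deposited raw counts per gene, unnormalized, in a table per time point, and each table listed only genes with a summed count of at least 10. Every column was mapped to a sample, and no row was unnamed.

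Counts were scaled by TMM, filtered with filterByExpr and tested with edgeR 4.0.16 (quasi-likelihood) in R 4.3.3. P-values were Benjamini-Hochberg adjusted over all genes tested and called under 0.05. Genotype was compared within each time (6 libraries), and culture and its difference between genotypes in 1 fit of all 12 libraries. Errors of log2 fold changes are SE. Fits were tested on simulated counts. The alternatives were other size factors, DESeq2 1.42.0, no filter, *Rn45s* left out, other groups in the fit, a replicate block, and each library left out in turn. Levels per length used GENCODE exons of mm10.

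Replicate libraries differed by 1.999 to 9.88 chi-square per degree of freedom, above sampling noise, and were kept apart. P-values measure the spread between these libraries. No molecular identifiers were used, so floors cover counting error only.

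The receptor genes and all lists were chosen with earlier results of these data known. Text names all 9 receptor genes, the called list genes with the largest changes (at most 5 per contrast), some genes listed in neither table, the 3 genes most alike to each receptor gene, genes overlapping them and the nearest X-linked neighbours. *Pde7a* is named beyond these, because it was called in the other direction from the other phosphodiesterase genes named. A result on the list of other Gαs-coupled receptors is not reported here.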

Additional observations from a re-analysis of the deposited data

Results flagged for a closer look

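In 5 of the receptor genes the change over 4 h of culture differed between WT and KO cells by the test of that difference itself. The culture change of WT minus that of KO, on the log2 scale, was 1.48 ± 0.09 in *P2ry10* (edgeR adjusted p 2.76e-10), 1.22 ± 0.11 in *Gpr171* (edgeR adjusted p 8.91e-08) and 1.12 ± 0.10 in *Gpr132* (edgeR adjusted p 2.39e-07). In each of these 3 genes the 3 WT 4 h libraries lay above all 6 libraries of 0 h.

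*Ptger4*, the lowest expressed of the 5, had a difference of 1.24 ± 0.24 (edgeR adjusted p 0.00159), made of a rise in WT and a fall in KO. The call on that fall was lost in 9 of 19 alternatives. All 3 WT 4 h libraries were above, and all 3 KO 4 h libraries below, the libraries of 0 h. In *Gpr174* the difference was -0.47 ± 0.09 (edgeR adjusted p 0.00208), and the count rose in KO cells, where it had started lower. That count includes sequence outside the deleted coding exon, and its source was not tested.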

How the results depend on the processing

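The counts of receptor genes called were 1 at 0 h, 5 at 4 h, 5 for culture in WT and 5 for the difference between culture changes in every fit that left out a library. For culture in KO they ran from 1 to 3, and *Gpr174* was the 1 that remained called in each. Without the filter on low counts 1 was called there. Over all genes, leaving out a library gave 26 to 161 calls at 0 h (without KO 0 h replicate 1 and WT 0 h replicate 1), 776 to 1361 at 4 h, 3240 to 3779 for culture in WT, 1919 to 2891 for culture in KO and 497 to 743 for the difference.

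Library totals alone shifted the median of all genes by 0.11 for culture in WT and 0.09 in KO. With them *Gpr132* was called raised in KO (0.22, edgeR adjusted p 0.0285), and receptor values near 0 that had not been called changed sign: -0.0065 in *Gpr171* and -0.018 in *Gpr132* at 0 h, -0.012 in *Gpr18* at 4 h, 0.10 in *Gpr65* for culture in WT, and 0.0049 in *P2ry10* and 0.017 in *Gpr171* for culture in KO. Sign changes with a library left out likewise touched only receptor values that were not called. The ranges there were -0.024 to 0.063 in *Gpr171*, -0.071 to 0.088 in *Gpr132* and -0.17 to 0.070 in *Ptger4* at 0 h, -0.028 to 0.042 in *Gpr18* at 4 h, -0.058 to 0.062 in *Gpr65* and -0.66 to 0.036 in *Adora2a* for culture in WT, -0.15 to 0.029 in *Gpr171* and -0.42 to 0.049 in *Adora2a* for culture in KO, and -0.39 to 0.30 in *Adora2a* for the difference. Counted by the coding length of the WT gene, *Gpr174* ranked 4 in WT 0 h and 4 in KO 4 h, and 5 in the other groups.

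Whether a replicate number marks 1 mouse at both times was not stated. Deviations of same-numbered libraries correlated at -0.10 to 0.15, below 0.1 for some pair in each comparison. With the replicate number as a block, the fall of *Gpr18* in KO was -0.16 with an edgeR adjusted p of 0.054, and no other receptor call changed. In WT culture every library correlated best with its own number, and in KO not every one did. Depth limits *Adora2a* and *P2ry14*, and the standard error of *Ptger4* was about 0.16 at either time.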
